A study of Mus musculus with 6 samples.

Results

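Erythroid genes, the genes that make a red blood cell, were followed in the liver of P6 male pups with an active or a silent human *SRY* transgene. They were represented by 8 genes, chosen by gene symbol with earlier results of these data known. These were the globins *Hba-a1*, *Hbb-b1* and *Hbb-b2*, the membrane proteins *Slc4a1* and *Bzrpl1* (now *Tspo2*), the transcription factors *Klf1* and *Gata1*, and the erythropoietin receptor *Epor*. All 8 were on the arrays, by 9 of the 25697 probes, out of 18138 gene symbols in the whole table. Another 57 erythroid genes with a probe and 13 genes of erythropoietin (Epo) signalling were read beside them.

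The arrays compared 3 hSRY-ON with 3 hSRY-OFF livers, all of the FVB strain (FVB/N in the study's methods) at postnatal day 6. Both groups carried the *Signalox-hSRY* responder transgene at the *H11* locus, in which a *CAG* promoter drives a floxed *DsRed2* gene placed ahead of FLAG-tagged human *SRY* and *EGFP*. In hSRY-ON pups Cre inherited through the oocyte of a *Ddx4-Cre* mother had removed *DsRed2* in the fertilised egg, so that *SRY*, the testis-determining gene of the Y chromosome, was driven by *CAG* throughout the body, and the pups used for the arrays did not carry *Ddx4-Cre* themselves. In hSRY-OFF pups no recombination had taken place and *SRY* was silent. All pups were male and had their own *Sry*, and both groups came from 1 insertion site. The study reports that hSRY-ON pups grew more slowly than control littermates and lacked milk in the stomach. Their livers looked discoloured and bloody and showed hepatic steatosis. The part of these states in the erythroid values was not tested. The arrays carried mouse probes, and the transgene was not measured here. The 6 arrays detected between 10318 and 10762 probes, and all 17 probes of 12 hepatocyte genes were detected on at least 1 array, as the label liver requires.

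In the mouse the fetal liver is the main site of red cell production, and after birth this work passes to the bone marrow and spleen, so a liver in the first week of life still holds erythroid islands among its hepatocytes. Erythroid precursors depend on Epo, a hormone of the kidney and fetal liver that binds Epor and signals through the kinase Jak2 and the factor Stat5. Gata1, working with Tal1, Lmo2 and Ldb1, and Klf1 then switch on the genes of globin chains, heme synthesis, the membrane skeleton and blood group proteins. Whole liver was measured. In such bulk RNA a change in the number of erythroid cells and a change in erythroid RNA per cell cannot be told apart.

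The promoters of the genes that the results turn on were read for the sites that these factors recognise. RefSeq promoters of build GRCm38.p6 were found for 5 of the 8 genes, and the 250 bases before the start of each are shown, 5′ to 3′ on the gene's strand. Capitals mark a GATA motif (AGATAA and its variant AGATAG, or else TGATAA and its variant TGATAG) or the CACCC-type motif CCNCNCCC of Klf1 and its relatives, each searched on both strands with overlapping matches counted separately.
Hba-a1: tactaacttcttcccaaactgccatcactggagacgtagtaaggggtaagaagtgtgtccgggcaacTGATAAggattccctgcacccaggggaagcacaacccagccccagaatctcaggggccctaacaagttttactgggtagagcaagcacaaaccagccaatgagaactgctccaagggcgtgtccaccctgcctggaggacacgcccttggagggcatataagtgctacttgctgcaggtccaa
Tspo2: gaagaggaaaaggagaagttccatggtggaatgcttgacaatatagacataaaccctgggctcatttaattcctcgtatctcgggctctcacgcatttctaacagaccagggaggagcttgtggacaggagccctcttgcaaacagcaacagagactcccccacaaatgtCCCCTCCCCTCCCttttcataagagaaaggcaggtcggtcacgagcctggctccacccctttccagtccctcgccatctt
Klf1: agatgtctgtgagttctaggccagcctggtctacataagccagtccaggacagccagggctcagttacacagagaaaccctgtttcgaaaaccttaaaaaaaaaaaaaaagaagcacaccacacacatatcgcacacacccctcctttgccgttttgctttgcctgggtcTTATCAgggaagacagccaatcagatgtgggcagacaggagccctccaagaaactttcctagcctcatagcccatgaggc
Gata1: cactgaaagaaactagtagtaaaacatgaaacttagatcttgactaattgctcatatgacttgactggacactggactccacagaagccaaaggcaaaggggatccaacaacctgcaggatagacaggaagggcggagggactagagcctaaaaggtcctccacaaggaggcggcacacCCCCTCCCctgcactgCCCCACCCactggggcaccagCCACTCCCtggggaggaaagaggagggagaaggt
Epor: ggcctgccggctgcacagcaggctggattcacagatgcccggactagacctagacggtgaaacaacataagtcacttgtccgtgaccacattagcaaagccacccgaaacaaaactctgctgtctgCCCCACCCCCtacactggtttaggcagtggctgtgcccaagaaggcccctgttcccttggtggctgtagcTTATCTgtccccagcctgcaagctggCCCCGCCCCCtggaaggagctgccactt
The *Hba-a1* window lies at chr11:32283422-32283671 on the plus strand and held 1 GATA motif, beginning 183 bases before the start. The *Klf1* window, chr8:84901732-84901981 on the plus strand, also held 1 GATA motif, 80 bases before the start. The windows of *Tspo2* (chr17:48451502-48451751, minus strand) and *Gata1* (chrX:7967911-7968160, minus strand) held no GATA motif and 2 and 3 CACCC-type matches, the pair in *Tspo2* overlapping in 1 pyrimidine run. *Epor* (chr9:21963577-21963826, minus strand) was the only window of the 5 with both, 1 GATA motif 54 bases before the start and 4 CACCC-type matches in 2 runs. Of all 32851 promoters in the table, 26.5% held a GATA motif in this window, 45.9% a CACCC-type motif and 8.19% both. Among 18 other erythroid genes that were higher in hSRY-ON, described further on, promoters were found for 12, of which 4 held the GATA motif, 8 the CACCC-type motif and 2 both. A match is a run of letters and not evidence of binding.

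All 9 probes passed the filter on dim signals (detected above the negative controls on at least 3 of the 6 arrays, whatever the group). For 8 of the 9 the hSRY-ON mean lay above the hSRY-OFF mean, against 51.4% of all 10734 tested probes. The median difference was 0.60 on the log2 scale, against 0.02 over all tested probes. Only *Bzrpl1* and 1 of the 2 *Gata1* probes passed the threshold of limma's moderated test (Benjamini-Hochberg adjusted p under 0.05 over all tested probes), both higher in hSRY-ON. That is 22.2% of the 9 probes, near the background, since 15.8% of all tested probes were called higher, 17.3% lower and 33.1% in either direction. The same held for separation of the groups: in 2 of the 9 probes all 3 hSRY-ON values lay above all 3 hSRY-OFF values, as they did in 25.4% of all tested probes.

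Globins come first, as the product that fills the red cell. *Hba-a1*, one of a pair of nearly identical α-globin genes, was the brightest of all probes on each of the 6 arrays (ILMN_1212702). Its deposited intensities were 46604, 46504 and 46799 in hSRY-OFF and 44365, 46807 and 47161 in hSRY-ON. The groups overlapped, and between 2 and 9 probes per array exceeded 90% of the array's maximum. Because quantile normalization gives the brightest probe the same value on every array (15.50), its difference of 0 is set by the procedure; under median scaling the difference was -0.03 ± 0.15 (SE) and under trimmed-mean scaling 0.01 ± 0.11, both far from the threshold in limma (adjusted p = 0.893 and 0.977). A signal at the top of the scale can hide a change, so the α-globin mRNA level was not resolved here.

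The probes of the adult β-globins were not at the top. On an array *Hbb-b1* was brighter than 70.1% to 78.7% of all probes and *Hbb-b2* than 88.4% to 94.8%. Intensities of different probes were not compared as mRNA amounts, so these ranks do not show that β-globin mRNA was scarce. *Hbb-b1* (ILMN_1235372) measured 7.29, 7.06 and 8.08 in the 3 hSRY-OFF livers and 8.11, 7.48 and 8.26 in the 3 hSRY-ON livers, on the normalized log2 intensity scale used from here on. The groups overlapped, with hSRY-OFF replicate 3 above hSRY-ON replicate 2. The difference, hSRY-ON minus hSRY-OFF, was 0.47 ± 0.31 (SE, n = 3 each; limma adjusted p = 0.270). *Hbb-b2* (ILMN_2729513) measured 9.71, 9.77 and 10.34 in hSRY-OFF and 10.46, 10.11 and 11.04 in hSRY-ON, and the same pair of arrays overlapped. Its difference was 0.60 ± 0.27 (limma adjusted p = 0.129), with a 95% interval from -0.04 to 1.23. The 2 β-globin genes are close copies and the files hold no probe sequences. How well each probe read its own transcript, and how far it also bound the other, is therefore uncertain.

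*Slc4a1* encodes band 3, the anion exchanger that anchors the membrane skeleton. Its probe (ILMN_1227675) was brighter than at least 99.2% of all probes on every array, with 13.80, 13.37 and 14.50 in hSRY-OFF and 14.62, 14.32 and 14.83 in hSRY-ON. The groups overlapped through 1 control, replicate 3, which exceeded hSRY-ON replicate 2. The difference was 0.71 ± 0.29, a 1.63-fold higher mean that did not pass the threshold (limma adjusted p = 0.0964).

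*Bzrpl1*, now *Tspo2*, encodes an erythroid relative of the mitochondrial translocator protein. It (ILMN_2635718) gave the clearest difference of the 8 genes. It measured 5.48, 5.31 and 6.50 in hSRY-OFF, where only 1 of the 3 arrays detected it, and 7.27, 7.35 and 7.27 in hSRY-ON, where all 3 did. The 3 hSRY-ON livers had an SD of 0.05 and lay above all 3 controls, among which replicate 3 was the highest. The difference was 1.53 ± 0.29, or 2.9-fold (limma adjusted p = 0.0077), and 1.29 with the undetected arrays set at their detection floor. It stayed past the threshold under all 16 alternative settings, with values from 0.64 to 1.92.

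The transcription factors gave a mixed picture. *Klf1*, which activates the adult β-globin gene, read 9.62, 8.78 and 10.36 in hSRY-OFF and 10.09, 10.00 and 10.16 in hSRY-ON (ILMN_2665087). The highest and the lowest of the 6 values were both controls, replicates 3 and 2, and the hSRY-ON livers sat between them. The difference of 0.49 ± 0.35 did not pass the threshold (limma adjusted p = 0.314).

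*Gata1* was read by 2 probes that led to different calls. The first (ILMN_1237279) measured 6.26, 5.88 and 6.98 in hSRY-OFF and 7.21, 7.23 and 7.39 in hSRY-ON, without overlap, and rose by 0.90 ± 0.26 (1.87-fold, limma adjusted p = 0.0354). That call held under 10 of the 16 alternative settings. The second (ILMN_2935686), detected on 2 of the 3 hSRY-OFF arrays, measured 6.07, 5.18 and 6.65 in hSRY-OFF and 6.69, 6.12 and 6.79 in hSRY-ON. It overlapped between groups and differed by 0.57 ± 0.37 (limma adjusted p = 0.266). *Gata1* is also active in megakaryocytes, whose markers are given further on.

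*Epor*, through which Epo keeps erythroid precursors alive, measured 7.37, 7.34 and 8.25 in hSRY-OFF and 8.18, 8.29 and 8.48 in hSRY-ON (ILMN_2749650). Replicates 1 and 2 of hSRY-OFF lay well below the hSRY-ON livers, while replicate 3 exceeded hSRY-ON replicate 1. The difference of 0.67 ± 0.25 did not pass the threshold (limma adjusted p = 0.0797), with a 95% interval from 0.08 to 1.26 before adjustment for the number of probes.

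**Figure D1:**
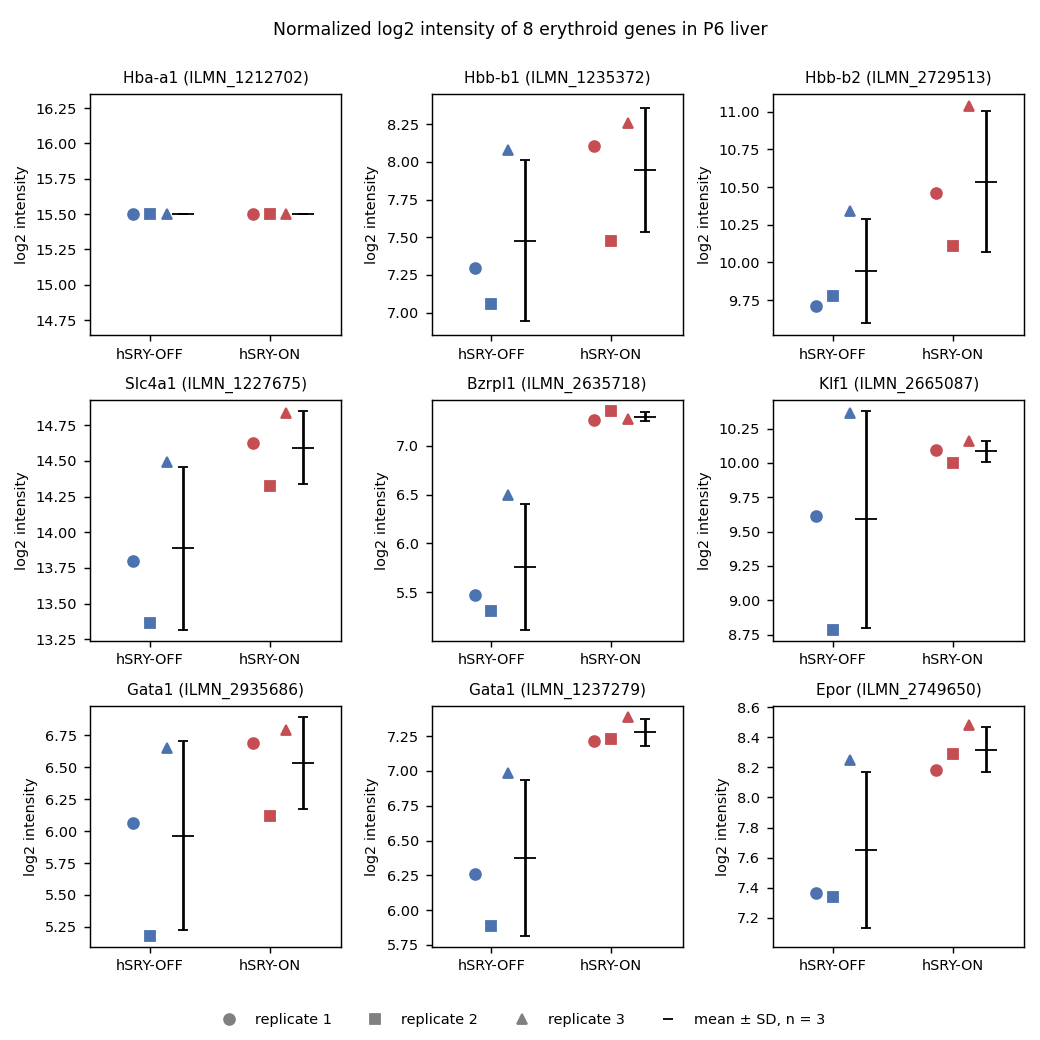
Normalized log2 intensity (y axis) of the 9 probes of the 8 genes in the 3 hSRY-OFF (blue) and 3 hSRY-ON (red) livers; each marker is 1 array, with its shape giving the replicate number, and bars are the mean ± SD (n = 3). Each panel has its own y range. Apart from *Hba-a1*, equal on all arrays by construction, hSRY-OFF replicate 3 (blue triangle) was the highest control in every panel and *Bzrpl1* and 1 *Gata1* probe separated the groups.

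The 8 genes thus varied together within the control group. Leaving aside *Hba-a1*, replicate 3 was the highest of the 3 controls for all 8 probes, against 33.7% of all tested probes. Replicates 1 and 2 lay below every hSRY-ON array for all 8. Replicate 3 lay above at least 1 hSRY-ON array for 6 of the 8, a share near the background. Over all 10734 tested probes, replicates 1, 2 and 3 lay above at least 1 hSRY-ON array for 6903, 6800 and 6923. The spread among controls exceeded that among hSRY-ON livers for 7 of the 8, with a median SD of 0.56 against 0.20. Over all tested probes the reverse was more frequent, and the control spread was the larger in 32.5% of them. The average of the mean-centred values was taken over all 8 genes, the flat *Hba-a1* included. It was -0.46, -0.74 and 0.22 in hSRY-OFF and 0.33, 0.14 and 0.51 in hSRY-ON.

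Outside the 8 genes, the 5 tested probes whose mean-centred values over the 6 arrays came nearest to that average, by root mean square distance in log2 units, were those of *Rb1* (0.043), *Tspan33* (0.071), *Pcyt1b* (0.075), *Josd2* (0.090) and *Hemgn* (0.091). *Hemgn*, hemogen, is a nuclear protein of blood-forming cells that was on the erythroid list. The fitted differences of these 5 probes ran from 0.54 to 0.71, and none passed the threshold. Of the 8 genes themselves *Slc4a1* was the nearest to the average (0.076) and *Bzrpl1* the farthest (0.472), leaving aside *Hba-a1*, whose flat profile is set by the normalization.

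The wider list of 63 erythroid genes, of which 57 had a probe and 43 had a tested one, was read over more probes. Of 62 tested probes 21, for 18 genes, rose in hSRY-ON and 0 fell in limma. The fitted difference was above 0 for 53, against 51.4% of all tested probes. The share called higher, 33.9%, compares with the 15.8% of all tested probes, and the median difference was 0.68. Without overlap, 24 of the 62 were higher and 2 lower, against 25.4% and 24.6% of all tested probes. The mean level of the list ran from 8.92 to 9.80 in hSRY-OFF and from 9.68 to 10.01 in hSRY-ON. Of all 91 probes of the list 24 were detected on no array.

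Among the transcription factors 6 of 10 probes rose (60%, background 15.8%). *Ldb1*, the bridge of the Gata1 complex, measured 11.37, 11.37 and 11.43 in hSRY-OFF and 12.38, 12.52 and 12.02 in hSRY-ON. Here the controls were tight and all 3 lay below the hSRY-ON livers, and the rise was 0.92 ± 0.15 (limma adjusted p = 0.00455). *Bcl11a*, a repressor of the embryonic and fetal globins that also acts in lymphocytes, measured 5.33, 5.003 and 5.73 in hSRY-OFF, where 1 array detected it, and 6.68, 6.66 and 6.32 in hSRY-ON. It rose by 1.20 ± 0.20 (limma adjusted p = 0.00492), or by 0.80 with undetected arrays at the floor. The adaptor *Lmo2* (0.70), the leucine zipper subunit *Nfe2* (0.98), the repressor *Gfi1b* (1.21) and 1 of 3 probes of the cell cycle factor *E2f2* (0.99) rose too, while *Tal1* differed by 0.75 ± 0.33 without passing (limma adjusted p = 0.120).

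Membrane and blood group genes had 7 of 23 probes higher (30.4%, background 15.8%), 17 with a fitted difference above 0, and 2 whose hSRY-ON values all lay below the controls. All 3 probes of *Rhag*, the Rh-associated glycoprotein, rose, by 1.33 to 1.38 (limma adjusted p from 0.0135 to 0.0170). The first of them, ILMN_2745513, measured 9.001, 8.46 and 9.89 in hSRY-OFF and 10.61, 10.52 and 10.37 in hSRY-ON. *Ermap*, carrier of a blood group antigen, rose by 0.86, *Gypc*, glycophorin C, by 0.68, *Xk*, the Kx protein, by 0.66, and *Tmcc2* by 1.32. The 3 probes of the water channel *Aqp1*, which other cells of the liver also make, had fitted differences of -0.34 to -0.03. *Spna1*, erythroid α-spectrin, was detected on 0 arrays.

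Heme and iron genes had 4 of 15 probes higher (26.7%, background 15.8%). *Alas2*, the erythroid enzyme that starts heme synthesis, measured 12.07, 12.08 and 12.62 in hSRY-OFF and 13.45, 13.00 and 13.09 in hSRY-ON, with no overlap, and rose by 0.93 ± 0.20 (1.9-fold, limma adjusted p = 0.0117). Both probes of *Fech*, which inserts the iron, rose by 0.76 and 0.84, and the mitochondrial iron carrier *Slc25a37* rose by 0.81. *Tfrc*, the transferrin receptor, differed by 0.59 and 0.56 on 2 probes without passing (limma adjusted p = 0.0858 and 0.0622). The enzymes of the middle of the pathway, which hepatocytes use as well, gave 0.44 for *Urod*, 0.55 for *Cpox* and 0.00 and 0.22 for *Uros*, none past the threshold.

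Of the enzymes and maturation genes 3 of 12 probes rose (25%, background 15.8%). *Bnip3l*, which removes mitochondria from reticulocytes, measured 10.80, 10.55 and 11.04 in hSRY-OFF and 11.98, 11.87 and 11.61 in hSRY-ON, with no overlap, and rose by 1.02 ± 0.17 (limma adjusted p = 0.00446). *Isg20*, an exonuclease, rose by 0.94 and 1 of 2 probes of the antioxidant *Prdx2* by 0.93, the other, brighter one giving 0.41 ± 0.16 (limma adjusted p = 0.0906). *Car2*, carbonic anhydrase 2, differed by 0.68 ± 0.22 and fell just short of the threshold (limma adjusted p = 0.0502).

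Among the other globins, *Hbq1*, a θ-globin gene, rose by 0.81 ± 0.24 (limma adjusted p = 0.0369), while *Eraf* (now *Ahsp*), the chaperone of free α-globin, differed by 0.28 ± 0.21 (limma adjusted p = 0.350). Embryonic globins were at or near background and were not tested. *Hbb-y* was detected on hSRY-ON replicate 1 alone by both of its probes, *Hba-x* on hSRY-ON replicates 1 and 3, and *Hbb-bh1* on 0 arrays.

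**Figure D2:**
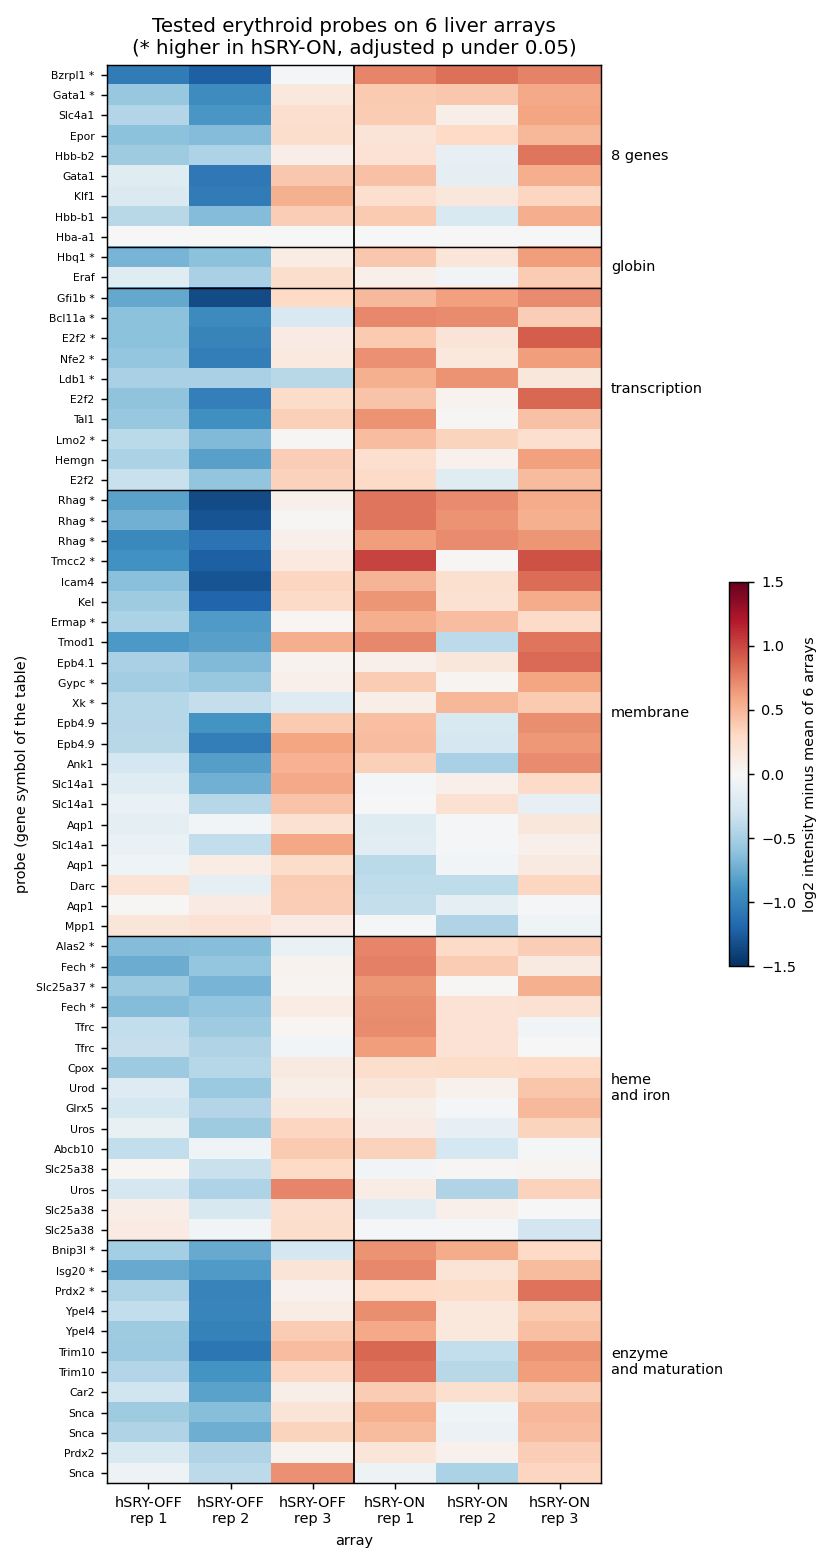
Normalized log2 intensity minus the mean of the 6 arrays (colour, cut at 1.5 either way) for the 9 probes of the 8 genes and 61 of the 62 tested probes of the other erythroid genes (rows, by role and falling difference) on the 6 arrays (columns). Asterisks mark probes called higher in hSRY-ON; the hSRY-OFF replicate 2 column is the lowest of the 6 for 46 of the 62 probes, and the hSRY-OFF replicate 3 column is the highest control for 61.

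How many probes of this list were called depended on which livers were in the fit. In 61 of the 62 probes hSRY-OFF replicate 3 was the highest control, against 33.7% of all tested probes, and replicate 2 was the lowest of all 6 arrays in 46, against 17.9%. The control spread exceeded the hSRY-ON spread in 53 of the 62. Without hSRY-OFF replicate 3, 34 of 62 probes were called higher (54.8%, background 12%), and 5 of the 9 probes of the 8 genes. Without hSRY-OFF replicate 1 only 3 were (4.84%, background 8.32%), and without hSRY-OFF replicate 2, 7 were (11.3%, background 9.08%). Leaving out hSRY-ON replicates 1, 2 and 3 gave 6, 16 and 13 calls (9.68%, 25.8% and 21%, against backgrounds of 10.9%, 13.9% and 18.1%). With any 1 array left out the 9 probes had 1 call, other than without hSRY-OFF replicate 3, and the median difference of the 62 stayed between 0.48 and 0.94. *Bcl11a*, *Ldb1* and *Bnip3l* were the 3 of the 21 called probes that stayed past the threshold under all 16 alternatives. Which cells of the liver gave these 3 signals was not tested.

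**Figure D3:**
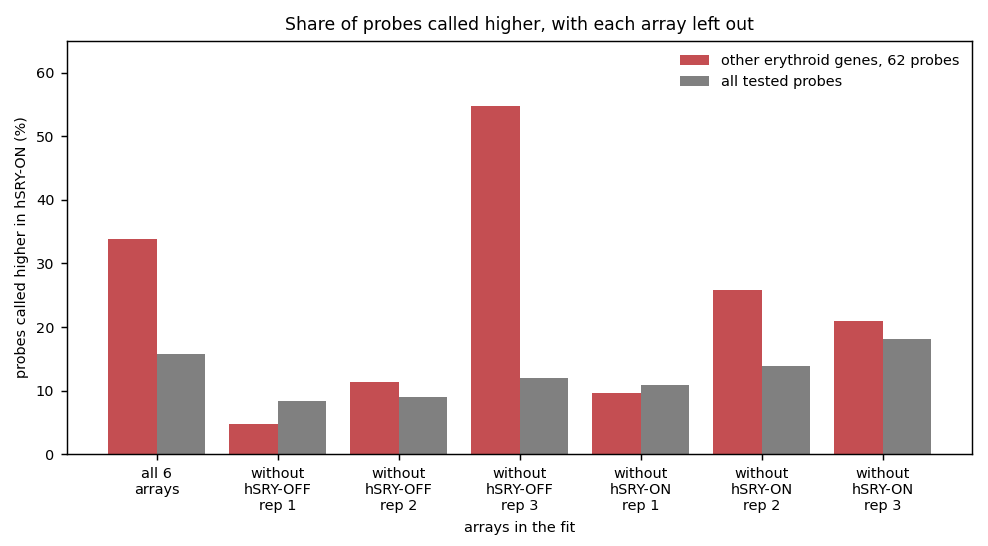
Percent of probes called higher in hSRY-ON (y axis, limma adjusted p under 0.05) among the 62 tested probes of the other erythroid genes (red) and among all 10734 tested probes (grey), with all 6 arrays and with each array left out (x axis). The red bar is 33.9% with all arrays, 4.84% without hSRY-OFF replicate 1 and 54.8% without hSRY-OFF replicate 3.

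Genes of Epo signalling were compared as the route by which erythroid output is set. Of 14 tested probes of 9 genes, 6 rose (42.9%, against 15.8% of all tested probes) and 1 fell (7.14%, against 17.3%), and the median difference was 0.31. *Epo* itself was detected on 0 arrays, as was *Kitl*, the ligand of the Kit receptor. *Jak2*, the kinase bound to Epor, measured 8.46, 8.56 and 8.26 in hSRY-OFF and 8.89, 9.05 and 8.86 in hSRY-ON on 1 of its probes, a rise of 0.51 ± 0.13 (limma adjusted p = 0.0229). Its other probe overlapped between the groups. *Stat5a*, which carries the signal to the nucleus, fell by 0.56 on 1 of 2 probes, from 8.14, 8.22 and 8.05 to 7.57, 7.63 and 7.51 (limma adjusted p = 0.00942).

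The largest differences of the pathway were among its targets. *Fam132b*, now *Erfe*, encodes erythroferrone, the hormone by which erythroblasts lower hepcidin in hepatocytes. It measured 6.43, 5.11 and 7.05 in hSRY-OFF, where 2 of 3 arrays detected it, and 9.76, 9.68 and 9.57 in hSRY-ON. The hSRY-ON livers lay close together and far above all controls, and the rise was 3.47 ± 0.44, or 11.1-fold (limma adjusted p = 0.00148). Setting hSRY-OFF replicate 2, which did not detect it, to the detection floor gave 3.26. It was the largest difference among the 14 probes, and it stayed past the threshold in all 16 alternatives, from 2.20 to 3.91.

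*Socs3*, a feedback inhibitor of cytokine receptors, measured 7.01, 6.46 and 7.01 in hSRY-OFF and 7.92, 8.28 and 8.33 in hSRY-ON, and rose by 1.35 ± 0.19 (limma adjusted p = 0.00253). *Cish*, another feedback inhibitor, measured 9.95, 9.65 and 9.96 in hSRY-OFF and 11.28, 11.30 and 10.47 in hSRY-ON, and rose by 1.16 ± 0.24 (limma adjusted p = 0.0102). Both separated the groups on every array and, with *Fam132b* and *Stat5a*, were called in all 16 alternatives. *Bcl2l1*, the survival factor of late erythroblasts, rose by 0.70 and 0.60 on 2 of 3 probes. *Socs2* and *Pim1* did not pass the threshold. *Socs3*, *Cish* and *Bcl2l1* also respond to other cytokines and are made by hepatocytes, and the cell type that gave their signal was not tested.

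**Figure D4:**
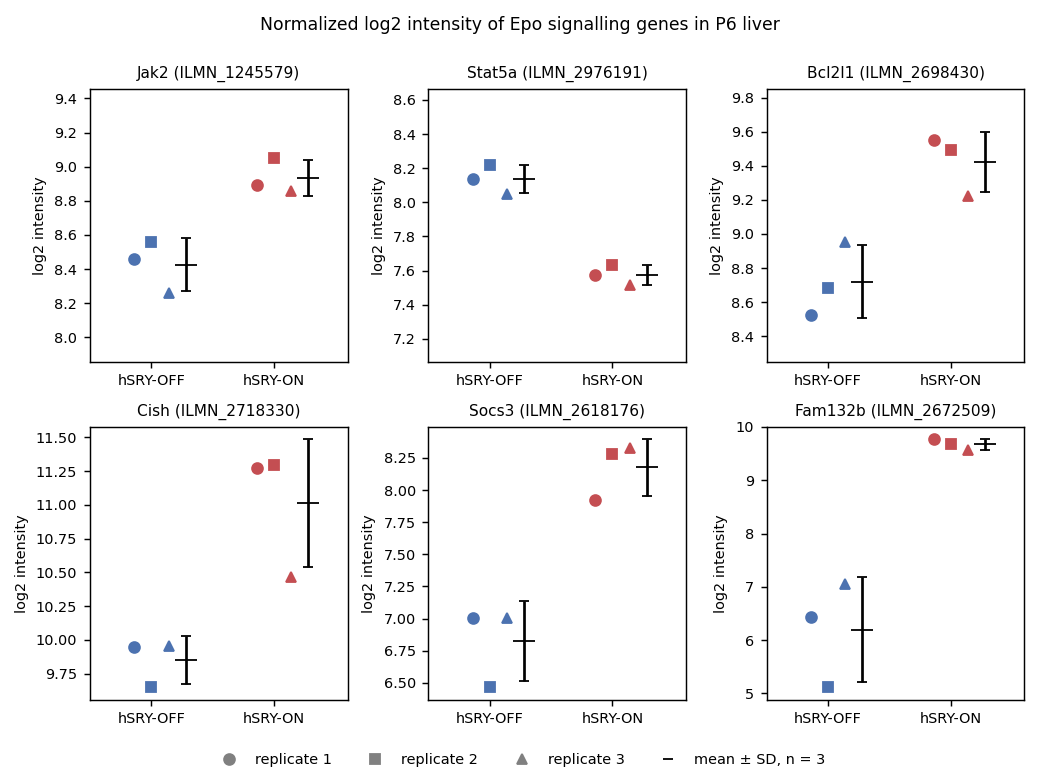
Normalized log2 intensity (y axis, own range per panel) of 6 genes of Epo signalling in 3 hSRY-OFF (blue) and 3 hSRY-ON (red) livers; each marker is 1 array and bars are the mean ± SD (n = 3), for *Bcl2l1* the probe with the larger difference. Only probes past the limma threshold are drawn, a choice that favours separated groups, and no drawn pair of groups overlaps. Of the 14 tested probes of the list 6 were higher and 2 lower without overlap, against 25.4% and 24.6% of all tested probes. *Fam132b* shows the largest gap, with a fitted difference of 3.47, and *Stat5a* is the only gene drawn that is lower in hSRY-ON.

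Other blood and liver cells were read from lists of their markers, because they share the tissue with erythroid cells. Megakaryocyte genes, whose precursors share Gata1, Gfi1b and Nfe2 with the erythroid line, had 9 of 10 tested probes higher (90%, background 15.8%) and 0 lower, with a median difference of 1.10. The mean level of that list ran from 7.79 to 8.40 in hSRY-OFF and from 8.94 to 9.33 in hSRY-ON, without overlap, and *Itga2b*, the platelet integrin, rose by 1.62 and 1.19 on its 2 probes. Without hSRY-OFF replicate 1 the count was 4 (background 8.32%) and without hSRY-OFF replicate 2 it was 5 (background 9.08%). Without each of the other 4 arrays it was 8 to 10 (backgrounds 10.9% to 18.1%). The part of these cells in the rise of *Gata1*, *Gfi1b* and *Nfe2* was not tested.

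Of 4 tested probes of blood progenitor markers 2 were called higher and 1 lower (50% and 25%, against 15.8% and 17.3% of all tested probes). *Gata2*, which precedes Gata1 in blood progenitors, measured 6.09, 5.69 and 5.27 in hSRY-OFF, with 1 array detecting it, and 6.55, 7.15 and 6.81 in hSRY-ON. It rose by 1.15 ± 0.24 (limma adjusted p = 0.0108), or by 0.995 with undetected arrays at the floor, *Meis1* fell by 0.83, and *Cd34* did not pass. Without hSRY-OFF replicate 1 or 2 the list had 1 call in place of 3, and without hSRY-ON replicate 1 it had 2. Over all tested probes the calls in these fits were 2034, 2166 and 2596, in place of 3554.

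Hepatocyte markers had 0 of 16 probes higher and 4 lower (25%, background 17.3%), with a median of -0.10 and list means from 13.23 to 13.24 in hSRY-OFF and from 12.91 to 13.19 in hSRY-ON. Without hSRY-OFF replicates 2 and 3 the lower calls were 1 and 2, and without hSRY-ON replicate 3 they were 4, beside 2 higher. The median differences of the other lists were -0.19 for macrophages (14 probes, 1 higher and 4 lower, 7.14% and 28.6%), 0.39 for endothelial cells (8 probes, 3 higher, 37.5%), -1.61 for lymphocytes (6 probes, 5 lower, 83.3%) and -0.35 for the cell cycle (18 probes, 3 lower, 16.7%), beside 15.8% higher and 17.3% lower over all tested probes. Macrophage calls fell from 5 to 2, 1, 2 and 3 without hSRY-OFF replicates 1 and 2 and hSRY-ON replicates 1 and 2, and without hSRY-ON replicate 3 the endothelial calls were 5 and the cell cycle calls 10, the latter 1 without each other array. With 1 array left out, calls over all tested probes ran from 2034 to 4060, against 3554 with all arrays. The part of these cells in the erythroid values was not tested.

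**Figure D5:**
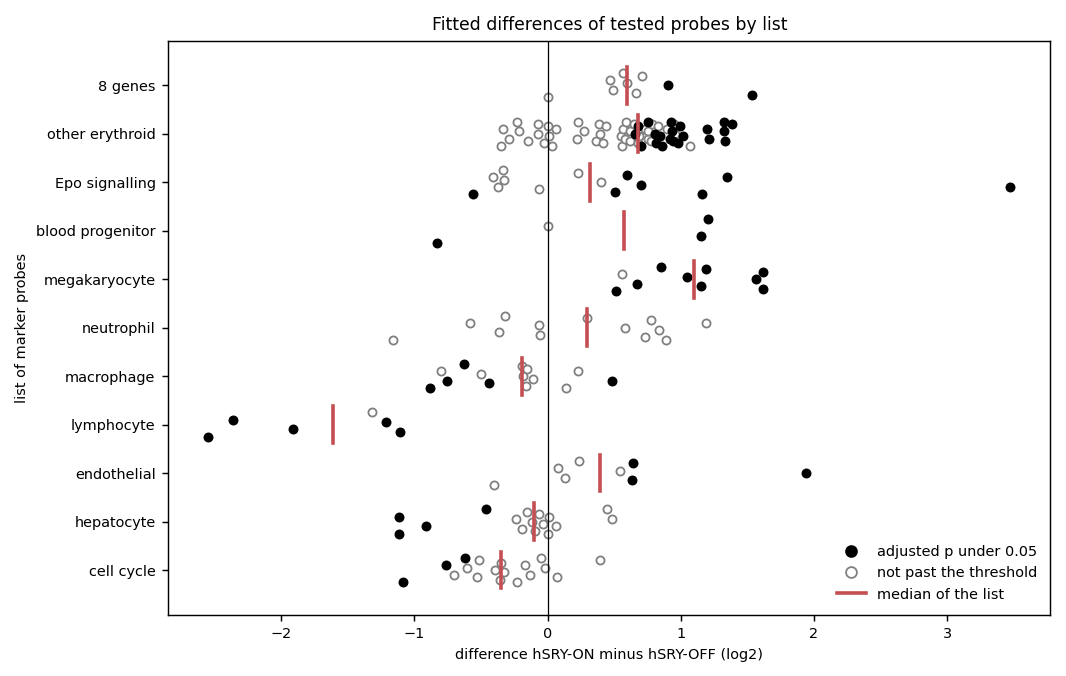
Fitted difference hSRY-ON minus hSRY-OFF (x axis, log2) of each tested probe in the erythroid, Epo signalling and other marker lists (rows); filled points passed the limma threshold, open points did not, and red bars are list medians. The erythroid medians are 0.60 (8 genes, 9 probes) and 0.68 (other erythroid genes), the megakaryocyte median is 1.10 and the lymphocyte median -1.61.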

How the data were processed

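Total RNA of P6 liver from 3 hSRY-ON and 3 hSRY-OFF male pups was hybridised for the authors by a core facility, as biotin-labelled cRNA, to Illumina MouseRef-8 BeadChips. The deposited table gave, per probe and array, a bead intensity that was neither background-subtracted nor normalized (lowest value 108), and a deposited detection p-value against negative control beads. Scanner settings are not given in the sources used here, and slides and scan dates were not used. The submitters' processing notes name limma without a version, and the study's methods name TCC, a package for counts, which was not applied to intensities. No column lacked a sample (0).

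Background was inferred from the detection p-values and removed with nec of limma 3.58.1 (offset 16) in R 4.3.3, then intensities were quantile normalized and log2 transformed. The offset shrinks differences of dim probes. Tested were the 10734 probes (8225 symbols) whose detection p fell below 0.01 on 3 or more of the 6 arrays, fitted with lmFit and eBayes without covariates, two-sided, with Benjamini-Hochberg adjustment over all of them (threshold 0.05). The number of arrays limits the precision, and p-values measure the spread between these pups, whose litters are not given. The study calls the controls of the arrays age-matched and does not name their mothers. A difference of litter or mother therefore cannot be told apart from that of group. Probes of a gene were tested separately, and symbols are those of the table. The procedure was checked on simulated data. Undetected arrays were set, where stated, at the lowest normalized signal among detected probes.

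The 8 genes and the gene lists were chosen with earlier results of these data known. Named were all probes of the 8 genes, every called probe of the erythroid and Epo lists, 10 genes named whatever their values (1 not reported here, *Alas2*, *Eraf*, *Spna1*, *Tfrc*, *Car1*, *Car2*, *Epo*, *Kit* and *Gata2*, of which *Car1* and *Kit* had no probe), and the 5 probes nearest in profile. Other genes were named after their values were seen. Alternatives covered background correction, offset, scaling, the filter, the variance model, 1 probe per gene, a replicate block and leaving out each array.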

Additional observations from a re-analysis of the deposited data

How the results depend on the processing

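Of 48 probes followed singly (those of the naming rule that were tested), none had a called difference that changed sign under an alternative (0 reversals). Counts of calls varied as follows, with the cause not tested unless stated. Backgrounds here are the share of all tested probes called higher in the same setting. Of the 9 probes, 2 were called in the main fit. With no filter, where more probes share the adjustment, 1 was called (11.1%, background 6.06%). Array weights gave 5 (55.6%, background 22.2%) and the replicate block 5 (55.6%, background 14.6%). With 1 array left out 1 to 5 were called (11.1% to 55.6%, backgrounds 8.32% to 18.1%). Of the 62 erythroid probes, 21 were called in the main fit. With no filter 11 of 91 tested were called (12.1%, background 6.06%), and with array weights 35 (56.5%, background 22.2%). With 1 array left out 3 to 34 were called (4.84% to 54.8%, backgrounds 8.32% to 18.1%). Trimmed-mean scaling gave 25 probes called higher and 1 called lower. The replicate block gave 29 (46.8%, background 14.6%), of which 19 were among the 21. Over all tested probes the deviations of same-numbered arrays from their group means correlated at 0.025, 0.095 and 0.052. Those of differently numbered arrays correlated at -0.17 to 0.13. Litters are not given, and these values do not decide whether same-numbered arrays are paired. With 1 probe per gene 17 of 43 were called. Over all tested probes 3554 calls became 2034 to 4060 with 1 array left out, and the 7 Epo signalling calls 5 to 9. With 1 array left out, calls ranged from 1 to 3 for blood progenitor, 1 to 6 for hepatocyte, 1 to 6 for macrophage, 0 to 6 for neutrophil, 4 to 10 for megakaryocyte, 4 to 6 for lymphocyte, 2 to 5 for endothelial and 1 to 10 for cell cycle markers, against 3, 4, 5, 0, 9, 5, 3 and 3 with all arrays. With 3 pups per group and signals near background for *Bzrpl1*, *Gata1* and *Bcl11a*, sizes of these differences are imprecise, and *Hba-a1* could not be resolved at the top of the scale.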

Other observations

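Neutrophil precursor genes set 1 hSRY-ON liver apart. Over 13 tested probes of 10 genes none passed the threshold with all arrays (0 calls in limma, 1 at an unadjusted p under 0.05), and the mean level ran from 10.76 to 11.05 in hSRY-OFF and from 10.48 to 12.33 in hSRY-ON. The highest was hSRY-ON replicate 3, in which *Ctsg*, a granule protease, measured 11.89, against 9.43 and 9.79 in the other hSRY-ON livers and 9.001 to 9.33 in hSRY-OFF. Without that array 6 of the 13 probes were called lower in hSRY-ON, against 2116 of all 10734 tested probes. Without hSRY-ON replicate 2, 1 of the 13 was called higher, against 13.9% of all tested probes.

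Lymphocyte genes moved opposite to the erythroid ones. Of 6 tested probes 5 fell, among them *Cd3g*, a chain of the T cell receptor complex, which fell by 2.55 (limma adjusted p = 0.00567) from 8.63, 8.52 and 7.91 to 5.76, 4.88 and 6.78 (2 of the 3 hSRY-ON arrays detected it, and the difference was -2.26 with the undetected one at the floor), and *Vpreb1*, the surrogate light chain of B cell precursors, which fell by 2.36 (limma adjusted p = 0.00321), or by 2.03 with the 2 undetected hSRY-ON arrays at the floor. Over all tested probes 17.3% were called lower.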
